A study of Mus musculus with 234 samples.

Results

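Stretch on the heart muscle wall is met at the Z-disc, the I-band and the intercalated discs, where adaptor proteins sit close to titin or actin. The 8 genes described here encode such proteins: *Ankrd1*, *Ankrd2*, *Ankrd23*, *Xirp1*, *Xirp2*, *Csrp3*, *Fhl1* and *Fhl2*. They were chosen by name with earlier results of these data known, which already showed higher *Ankrd1* in homozygous CMs, and each is 1 row of a count matrix of 55538 features, of which 23664 had a count in at least 1 cell. Counts came from 234 single cardiomyocytes (CMs) of 5 mice, picked by hand after Langendorff dissociation and sequenced by SMART-seq2, a full-length method without molecular identifiers.

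Control CMs came from mice M26 (24 cells) and M73 (9 cells), which carry no PGKcre:BAG3P209L label and whose strain label is C57BL/6. Homozygous CMs came from mice M25 and M116 and were labelled bright (21 and 59 cells) or dim (18 and 50 cells) for their eGFP. Heterozygous CMs came from 1 mouse, M72 (27 cells labelled bright and 26 labelled dim). In the transgenic line, a human BAG3 P209L-eGFP construct in the Rosa26 locus is driven by the CAG promoter once PGK-Cre has removed a STOP cassette, and the line goes back to 1 embryonic stem cell clone. The paper places its single-cell experiment at 2 weeks of age, and controls in its methods were siblings that could be wild type, or carry PGK-Cre or the unrecombined construct. The mixed background of the line is also stated there, the age of mouse M72 is not. Bright and dim CMs of a homozygous mouse shared 1 heart, and the cells of a mouse are no replicates of its genotype. Counts were therefore added up by mouse and label, which gave 8 sums, and the comparisons rest on 2 mice per group.

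The *Ankrd* members belong to the muscle ankyrin repeat proteins, which bind titin in the I-band and also enter the nucleus. *Ankrd1* (CARP) is a cardiac member known to be induced by load and in cardiomyopathy, *Ankrd2* is mainly a skeletal muscle gene and *Ankrd23* (DARP) is found in both muscles. *Xirp1* and *Xirp2* encode the Xin repeat proteins, actin binders of intercalated discs and of sites of sarcomere remodelling that also bind filamin C. *Csrp3* (muscle LIM protein) is a Z-disc LIM protein, and *Fhl1* and *Fhl2* are four-and-a-half LIM proteins that bind titin and signalling kinases.

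In GENCODE vM21 (GRCm38), *Ankrd1* lies at chr19:36111961-36120099 on the minus strand with 9 exons in its longest coding transcript, and *Ankrd2* at chr19:42036000-42045110 on the plus strand. *Xirp1* lies at chr9:120013755-120023598 with 3 exons, *Xirp2* at chr2:67446002-67526614 with 9 exons, *Csrp3* at chr7:48830398-48848033, *Fhl1* at chrX:56731787-56793346 and *Fhl2* at chr1:43123074-43196984. *Ankrd23* lies at chr1:36530188-36536883, and 78.2% of its exon bases also belong to *Gm42417* on the same strand, which has a row of its own in the matrix. Reads from shared exons cannot be assigned to 1 of these genes, so the counts of *Ankrd23* are uncertain.

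The sequences before the starts of *Ankrd1*, *Xirp2* and *Fhl2* are shown because the sums of these 3 genes did not overlap between bright and control CMs. *Ankrd23* also met this and is left out for its uncertain counts. The sequences are RefSeq windows of 250 bases on GRCm38.p6, written 5′ to 3′ on the gene's strand and ending at the base before the RefSeq start. By the GENCODE positions above, the *Ankrd1* window lies inside the gene and the *Fhl2* window in part, while the *Xirp2* window ends just before the gene. Capitals mark matches to 3 motifs searched on both strands, the M-CAT core CATTCC of TEAD factors, the MEF2 box and the CArG box of SRF.

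Ankrd1, chr19:36119845-36120094, minus strand: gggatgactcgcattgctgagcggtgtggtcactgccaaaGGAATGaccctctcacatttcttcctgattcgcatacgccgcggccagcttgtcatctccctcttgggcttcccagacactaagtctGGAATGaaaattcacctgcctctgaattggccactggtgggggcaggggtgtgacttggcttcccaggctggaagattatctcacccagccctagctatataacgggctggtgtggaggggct
Xirp2, chr2:67445752-67446001, plus strand: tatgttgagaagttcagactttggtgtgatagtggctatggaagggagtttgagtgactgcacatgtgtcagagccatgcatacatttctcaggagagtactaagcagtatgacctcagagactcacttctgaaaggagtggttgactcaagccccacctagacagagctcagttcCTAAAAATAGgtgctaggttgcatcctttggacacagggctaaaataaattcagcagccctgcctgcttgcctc
Fhl2, chr1:43196762-43197011, minus strand: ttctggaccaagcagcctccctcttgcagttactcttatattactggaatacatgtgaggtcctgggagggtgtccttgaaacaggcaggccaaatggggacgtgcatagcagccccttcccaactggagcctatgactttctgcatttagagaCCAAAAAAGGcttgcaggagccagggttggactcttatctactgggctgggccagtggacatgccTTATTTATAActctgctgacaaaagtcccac

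The *Ankrd1* window held 2 M-CAT cores, both on the opposite strand and so printed as its reverse complement, beginning 210 and 123 bases before the start. The *Xirp2* window held 1 MEF2 box from 74 to 65 bases before the start. The *Fhl2* window shown held a CArG box from 96 to 87 bases and a MEF2 box from 31 to 22 bases before the start. Over 32851 RefSeq windows of this length, 12.6% held an M-CAT core, 2.92% a MEF2 box and 1.47% a CArG box. RefSeq windows were found for 7 of the 8 genes, 11 windows in all, and among the others 1 of *Ankrd23* held an M-CAT core and 1 each of *Fhl1* and *Fhl2* a CArG box, in *Fhl2* in the window of its other start. These are matches of letters and not sites shown to be bound.

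Cell totals ran from 487 to 1392253 counts (median 711527), 219 of 234 cells had at least 1000 genes with a count, and the sums ran from 4096609 (control M73) to 40508124 (bright M116). The 8 CM markers had counts in every sum, with a summed level of 55219.6 to 77931 CPM after TMM normalization (normalized CPM, where CPM scales counts to a total of 1e6), and the atrial markers summed to 1.13 to 8.04. Fibroblast markers summed to 37.6 to 534 normalized CPM in 7 of the 8 sums and to 2415 in bright CMs of M25, where 1 well held 88.7% of their counts. Endothelial markers summed to 77.1 to 190.3 and immune markers to 0.252 to 71.9. Smooth muscle and pericyte markers summed to 374 to 1523, and skeletal muscle markers, which include the CM gene *Ckm*, to 587 to 1182. *Sln*, *Myh1* and *Myh2* were at 0 in all 8 sums. Of wells with at least 1000 genes, 2 had less than 1000 CPM of *Actc1*, both among the bright CMs of M25. These were left out in an alternative given for *Ankrd1*, *Xirp1* and *Fhl1*. A further bright well of M25 had 938 genes, too few for this rule, and stayed in. It held 3.13 of *Ankrd1* and 2.29 each of *Xirp2* and *Fhl2* as log2(CPM + 1). Each bright well of M25 had at least 231232 counts. The titles name 4 sets of libraries: GL-9122b holds M25 and M26, GL9989-1 holds M73 and M72, and GL9989-2 and GL9989-3 share the cells of M116.

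The transgene row hBAG was read first, since it checks the labels. It had 0.445 and 0.566 normalized CPM in control M26 and M73, 279 and 216 in bright CMs of M25 and M116, and 10.3 and 93.2 in their dim CMs. In the heterozygous mouse it went against the label, with 109 in cells labelled bright and 241 in cells labelled dim, and BAG-eGFP did the same with 64.7 and 200.4. The words bright and dim are used for mouse M72 as its labels give them. This mouse also differed from the other 4 in *Xist*, with 0.526 and 4.19 normalized CPM against 158 to 380.

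*Ankrd1* had the largest difference of the 8 genes between homozygous and control CMs. The sums held 199 and 226 normalized CPM in control M26 and M73, 1245 and 1284 in bright CMs of M25 and M116, and 829.9 and 631 in dim CMs of the same mice. Both bright sums lay above both dim sums, and both dim sums above both control sums. The group means were 213 ± 19.2 in control, 1264 ± 28 in bright and 730.4 ± 141 in dim CMs (SD, n = 2 mice each). The fitted log2 fold change was 2.50 (standard error 0.28) for bright and 1.74 (standard error 0.33) for dim against control, 5.67-fold and 3.33-fold. This difference was known when the genes were chosen, so it is a description and carries no test. Within set GL-9122b it was 2.64 in bright and 2.06 in dim CMs of M25 against control M26 (log2 ratio of normalized CPM). M116 and control M73 share no set, only the prefix GL9989 of its name, and differed by 2.50 and 1.48. Without the 2 wells low in *Actc1* the log2 fold change of bright against control was 2.56.

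The *Ankrd1* difference was spread over the cells. All 80 wells labelled bright, the 2 low in *Actc1* included, and all 68 labelled dim had *Ankrd1* counts, against 29 of 33 control wells, and 3 of the 4 control wells without had under 1000 genes. At an equal depth of 100000 counts per cell, *Ankrd1* was seen in 17 of 20 cells of M26 and 8 of 8 of M73, in 20 of 21 and 52 of 52 bright and in all dim CMs of M25 and M116. The median cell held 69.1 CPM in control M26 and 164 in control M73, 641 and 869 in bright CMs of M25 and M116, and 579.5 and 474 in their dim CMs. The highest control well held 1112 CPM but had only 775 genes, and 30 of 80 bright and 18 of 68 dim wells lay above it. Among wells of at least 1000 genes the highest control held 675 CPM, and 39 of 76 bright and 26 of 66 dim CMs lay above it. The cell with the most *Ankrd1* counts held 29.4% and 11.4% of the bright sums of M25 and M116 and 49.1% of the small control sum of M73. After removal of the cell with the highest count from each of the 8 sums, the log2 ratio of mean normalized CPM was 2.72 for bright and 2.05 for dim against control, compared with 2.57 and 1.78 with all cells.

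**Figure D1:**
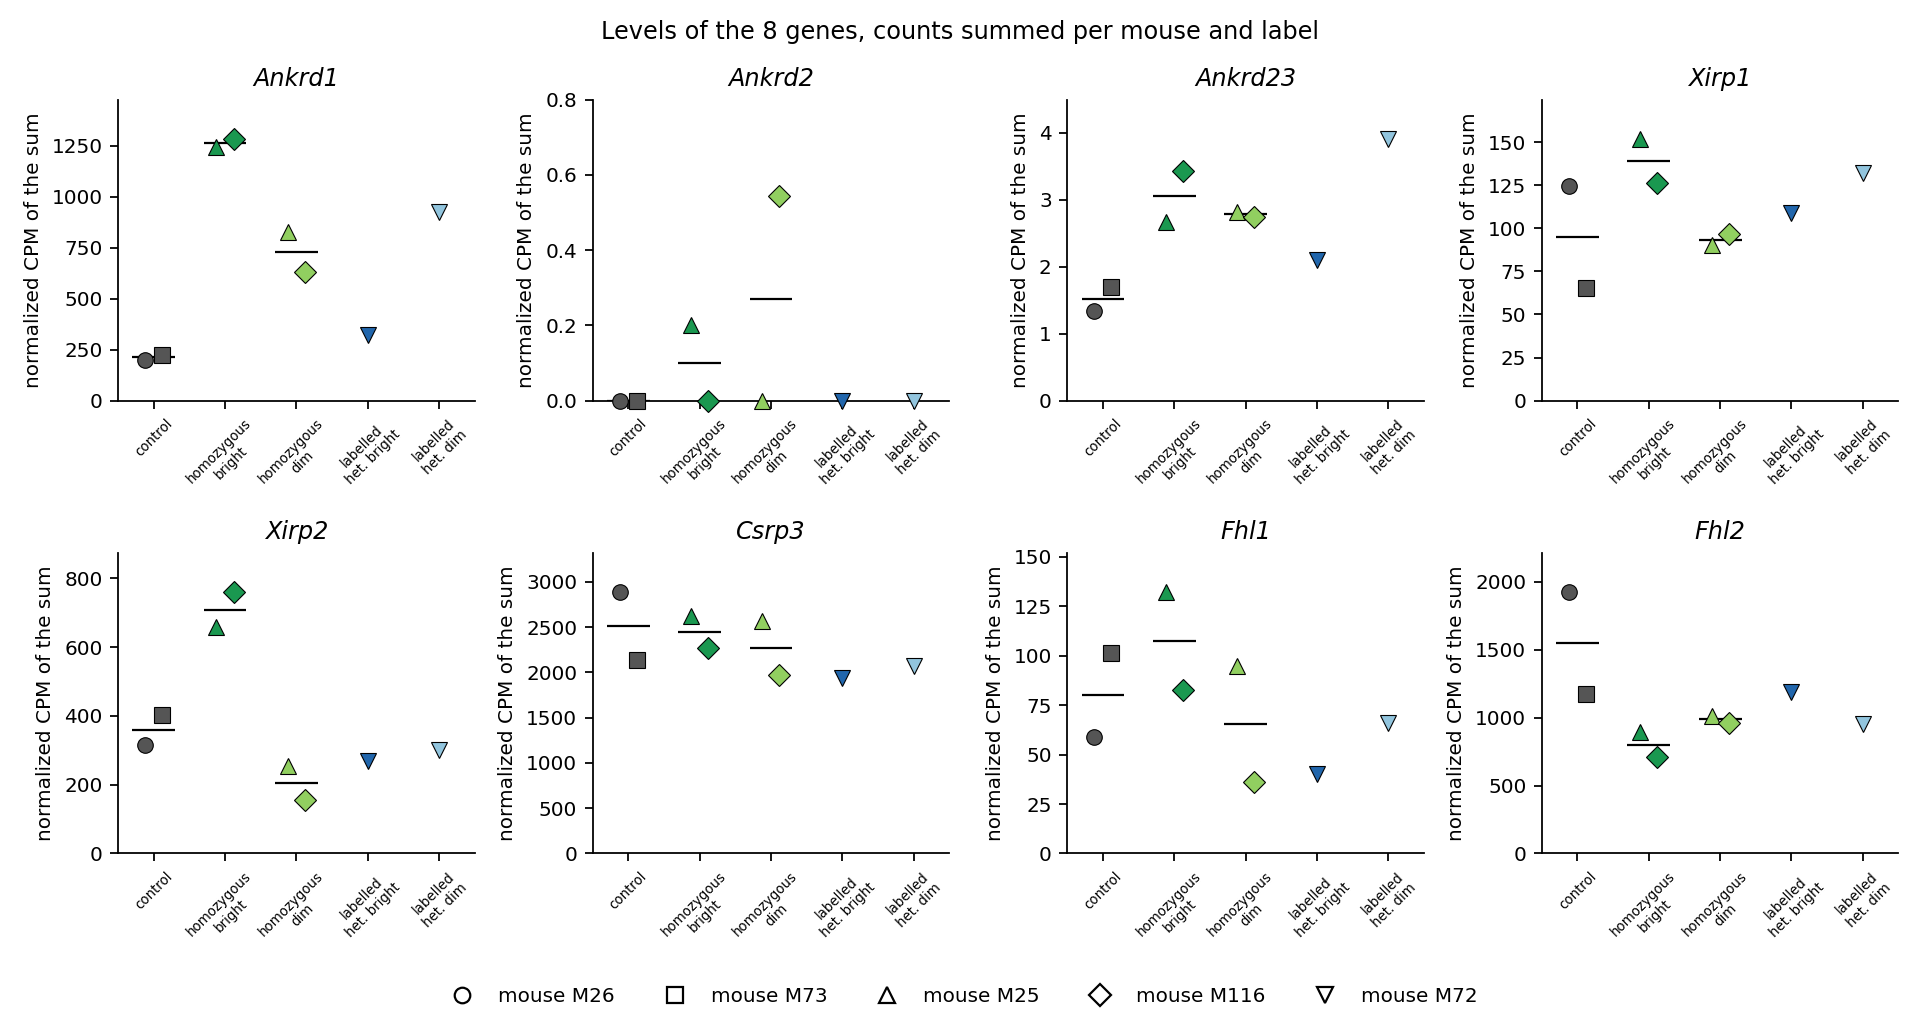
Normalized CPM of the counts summed per mouse and label for each of the 8 genes, on linear axes from 0, with mouse shown by symbol and the mean of 2 mice by a bar. *Ankrd1* sums are highest in homozygous bright CMs (1245 and 1284), then dim CMs (829.9 and 631), with controls at 199 and 226, while for *Fhl2* the controls at 1927 and 1176 lie above the 4 homozygous sums.

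Between bright and dim CMs of the same heart, *Ankrd1* was higher in bright cells in both homozygous mice, by 0.58 in M25 and 1.03 in M116 (log2 ratio of normalized CPM). In M116 this rested on 1 of its 2 library sets. In set GL9989-2 the bright CMs held 743 CPM and the dim CMs 767 (29 cells each), with median cells of 598 and 599.8. In set GL9989-3 the bright CMs held 2056 CPM (30 cells) and the dim CMs 539.5 (21 cells), with median cells of 1204 and 455. The transgene did not show this split, since hBAG was higher in bright CMs by 1.21 in GL9989-2 and 1.29 in GL9989-3 (log2 ratio of CPM). With the M116 cells of GL9989-2 only, the fitted log2 fold change of *Ankrd1* between bright and dim CMs was 0.32 (standard error 0.34), and with those of GL9989-3 only it was 1.20 (standard error 0.31), against 0.77 (standard error 0.21) with both. Against control, bright CMs were at 2.13 with GL9989-2 only and at 2.84 with GL9989-3 only.

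In the heterozygous mouse *Ankrd1* was, like hBAG, higher in the cells labelled dim. It had 321 normalized CPM in cells labelled bright and 924 in cells labelled dim, a ratio of 0.347 (95% counting interval 0.335 to 0.359, exact binomial, counting error only). Both values lay above the 2 control sums, and the lower one lay below all 4 homozygous sums. A single cell held 28.6% of the counts in the sum labelled dim. Without the cell of highest count the sums labelled bright and dim were at 278 and 694. The median cells held 213 and 374 CPM. With 1 mouse there is no test of either difference.

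The other ankyrin repeat members gave little signal. *Ankrd2* had counts in 2 of 234 cells, 24 counts in all, 1 bright CM of M25 and 1 dim CM of M116, and its control sums of 0 allow up to 0.153 CPM in M26 and 0.732 CPM in M73 (3 counts of the total). It passed no filter on low counts and was not tested. *Ankrd23* had 471 counts in all, with 1.33 and 1.70 normalized CPM in control, 2.67 and 3.43 in bright and 2.81 and 2.74 in dim CMs. The control sums held 24 and 6 counts, and the log2 fold change of bright against control was 0.94 (standard error 1.39, adjusted p = 0.960 from edgeR). It was seen in 41.7% and 44.4% of control cells and in 50% to 61.9% of homozygous cells. At an equal depth of 100000 counts per cell these shares became 15% and 12.5% in control and 16.7% to 30.8% in homozygous CMs.

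*Xirp2* gave high bright sums and low dim sums. It had 314 and 402 normalized CPM in control M26 and M73, 657 and 761 in bright CMs of M25 and M116 and 255 and 156 in their dim CMs. The 3 groups did not overlap. The log2 fold change was 0.91 (standard error 0.30, adjusted p = 0.663 from edgeR) for bright against control, -0.84 (standard error 0.38, adjusted p = 0.859 from edgeR) for dim against control and 1.76 (standard error 0.30, adjusted p = 0.999 from edgeR) for bright against dim. None of the 3 passed the threshold of 0.05 in edgeR. The difference between bright and dim CMs was called by DESeq2 (adjusted p = 5.44e-06) and by edgeR when genes of low counts were not removed (adjusted p = 3.98e-09).

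Few cells carried the bright *Xirp2* sums. In M25 a single bright CM held 70.3% of the *Xirp2* counts, and in M116 another held 39.5%. Both CMs of M116 with the most *Xirp2* were of library set GL9989-3, where bright CMs held 1274 CPM and dim CMs 140.1 (log2 ratio 3.18), against 387 and 185 in GL9989-2 (log2 ratio 1.07). The median bright cell was at 167 CPM in M25 and 286 CPM in M116, while the median control cell was at 259 in M26 and 160.4 in M73, and the median dim cell at 242 and 150.0. In M25 the median dim cell was thus above the median bright cell, unlike the sums. In an alternative chosen after seeing the data, 3 bright CMs with over 5000 CPM of *Xirp2* were left out. The log2 fold change then was -0.39 (standard error 0.37) for bright against control, a reversed sign, and 0.46 (standard error 0.37) for bright against dim. *Ankrd1* stayed at 2.19 (standard error 0.30) for bright against control and moved to 0.46 (standard error 0.22) for bright against dim in the same fits.

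**Figure D2:**
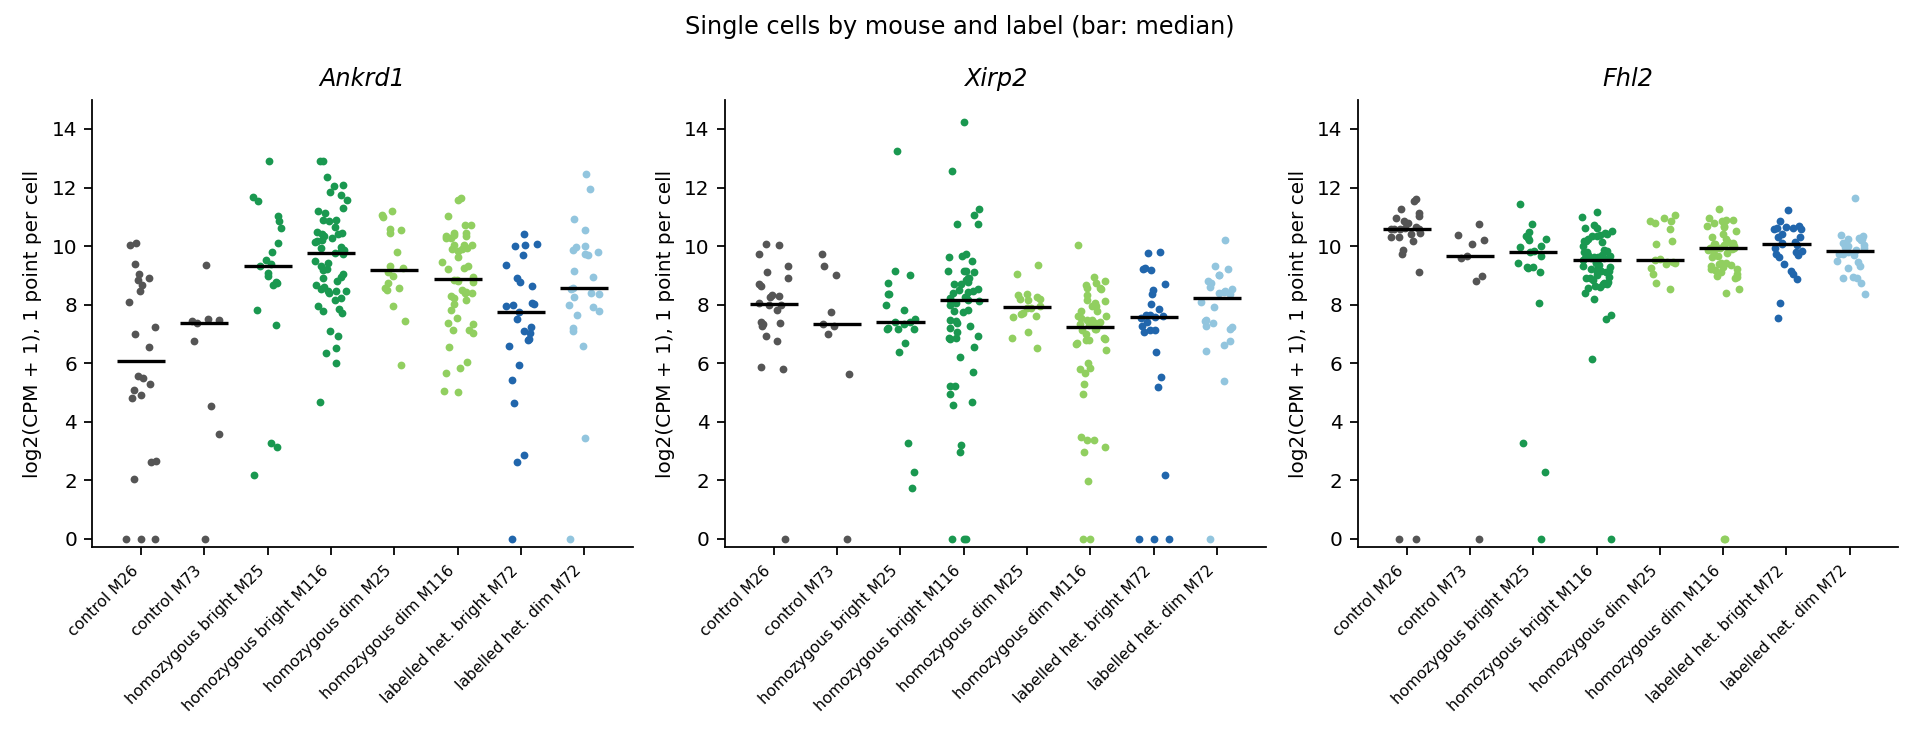
Single cells by mouse and label for *Ankrd1*, *Xirp2* and *Fhl2* as log2(CPM + 1), 1 point per cell with a bar at the median. The *Ankrd1* medians of homozygous CMs (474 to 869 CPM) lie above those of controls (69.1 and 164 CPM) with overlapping cells, whereas the *Xirp2* medians are close to each other (167 and 286 CPM in bright, 259 and 160.4 CPM in control CMs) and 3 bright cells stand far above the rest.

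The 3 bright CMs with the most *Xirp2* stood out in several of the 8 genes. The first, from M116, held 19397 CPM of *Xirp2*, 7594 of *Ankrd1*, 6475 of *Csrp3* and 1711 of *Fhl1*, where the median bright CM of that mouse held 286, 869, 2193 and 30.7. The second, from M25, held 9709 CPM of *Xirp2*, 7676 of *Ankrd1*, 9746 of *Csrp3* and 1242 of *Fhl1*, where medians were 167, 641, 2408 and 47.3. It had 10717 genes with a count against a median of 6369, more than any other bright CM of M25. The third, from M116, held 6006 CPM of *Xirp2*, 7670 of *Ankrd1*, 6364 of *Csrp3* and 189.6 of *Fhl1*. *Fhl2* was below the median of the mouse's bright CMs in all 3 (180.1, 617 and 569 CPM), and hBAG ranked 37th, 3rd and 14th among the bright cells. *Nppa*, which encodes atrial natriuretic peptide, was at 2553, 3066 and 1794 CPM in these cells, against medians of 0 in M116 and 8.75 in M25. Other stress and fetal genes were not high in all 3: *Nppb* was at 345.5, 2676 and 2000.1 CPM against medians of 427 in M116 and 909 in M25, and the fetal troponin gene *Tnni1* at 227, 1523 and 3229.9 against 282 and 77.5. *Acta1*, skeletal actin, was at 1.48, 113 and 12930.2 against 4.18 and 1.11. These cells were picked for their *Xirp2* level, so its value there is no finding, and whether the well of the second cell held 1 cell was not tested.

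*Xirp1* showed smaller differences than *Xirp2*. It had 124 and 65.4 normalized CPM in control, 152 and 126 in bright and 90.03 and 96.6 in dim CMs of the same order of mice. The lower bright sum and the higher control sum were nearly level, and with the factors of the fit of bright and control sums alone they overlapped. The log2 fold change was 0.50 (standard error 0.41, adjusted p = 0.929 from edgeR) for bright and -0.07 (standard error 0.42, adjusted p = 0.999 from edgeR) for dim against control. Bright sums lay above the dim sums of the same mouse by 0.75 in M25 and 0.39 in M116 on the log2 scale. One of the 2 bright wells of M25 low in *Actc1* held 3079 CPM of *Xirp1*, 23.6% of the counts of its sum, and without both wells the log2 fold change of bright against dim was 0.41 (standard error 0.20) in place of 0.56 (standard error 0.23).

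*Csrp3* was the most abundant of the 8. It had 2889 and 2135 normalized CPM in control, 2625 and 2269 in bright and 2570.2 and 1967 in dim CMs, so that all groups overlapped. The log2 fold change was -0.09 (standard error 0.27) for bright and -0.19 (standard error 0.32) for dim against control. With library-size scaling, which moved the median of all genes to 0.41 and 0.38, the values were 0.21 and 0.09.

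*Fhl1* varied more between mice than between groups, with 58.9 and 101 normalized CPM in control, 132 and 82.4 in bright and 94.7 and 36.0 in dim CMs. Its log2 fold change was 0.35 (standard error 0.47) for bright and -0.33 (standard error 0.58) for dim against control. Single CMs held 44.7% and 32.2% of its bright sums, and without the 3 bright CMs over 5000 CPM of *Xirp2* the first value was -0.32 (standard error 0.48). The 2 bright wells low in *Actc1* held 19.9% of the *Fhl1* counts of bright M25, and without them the log2 fold change was 0.23 (standard error 0.44) for bright against control.

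*Fhl2* sums were lower in both bright and dim homozygous CMs than in controls. The gene had 1927 and 1176 normalized CPM in control M26 and M73, 895 and 709 in bright and 1013 and 959.7 in dim CMs of M25 and M116. All 4 homozygous sums lay below both control sums. The summed level of the 8 CM markers moved the same way. It was 77931 and 77623 normalized CPM in control, 63094 and 55793 in bright and 64711 and 55219.6 in dim CMs. For bright against control, *Ryr2*, *Tnni3*, *Tnnt2*, *Pln* and *Myl3* were at -1.32, -0.87, -0.73, -0.65 and -0.22 without overlap. *Myh6* (-0.82), *Tnnc1* (-0.19) and *Actc1* (-0.006) overlapped, and *Actc1* was at 0.023 for dim against control. None was past the edgeR threshold, and the part of the markers in the *Fhl2* result was not tested. The log2 fold change of *Fhl2* was -1.0 (standard error 0.32, adjusted p = 0.663 from edgeR) for bright and -0.69 (standard error 0.34, adjusted p = 0.906 from edgeR) for dim against control, and neither passed the threshold. The 2 controls differed from each other by more than bright from dim. The log2 ratio was -1.11 in bright M25 against M26 of the same library set, and -0.73 in bright M116 against M73 of another set. The median cell held 1532 CPM in control M26 and 802 in control M73, against 885 and 740.2 in bright CMs, so the median cell of M73 lay below that of bright M25. When each cell had equal weight, the log2 difference was -0.22 for bright against control and 0.45, a reversed sign, for dim. Without control M26 the log2 fold changes were -0.64 and -0.31.

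**Figure D3:**
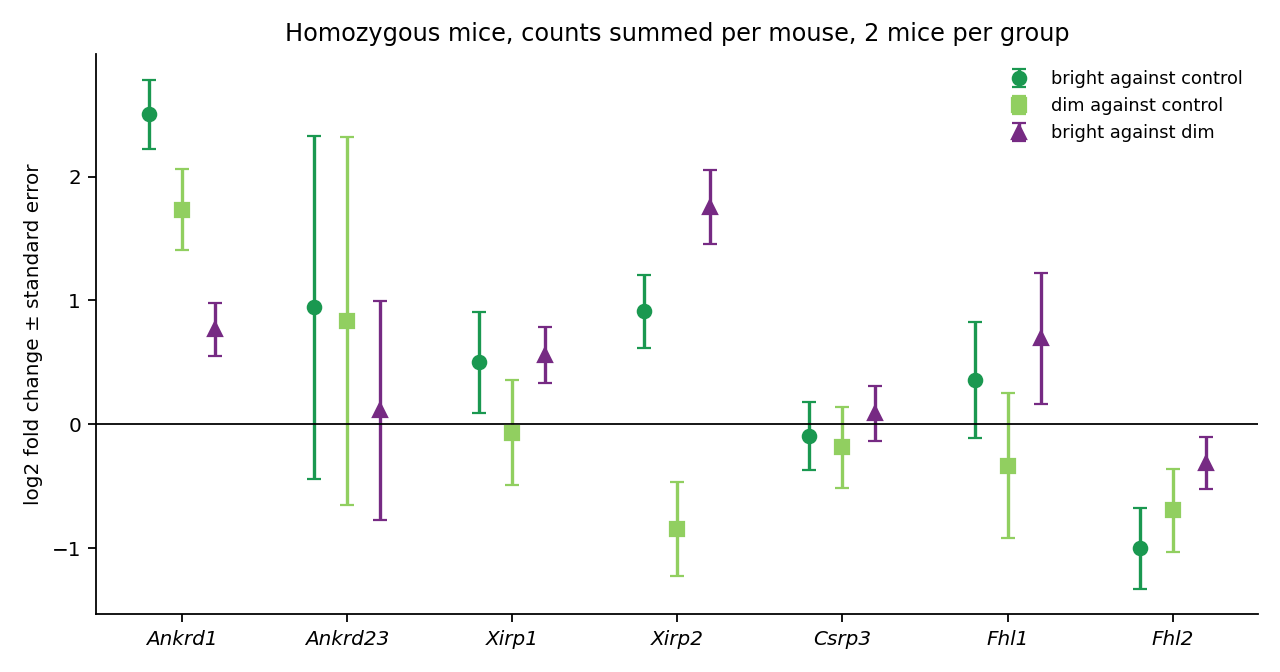
Fitted log2 fold changes with standard errors (bars) of the 7 tested genes in the 3 comparisons of homozygous sums, 2 mice per group. *Ankrd1* is at 2.50 and 1.74 against control, *Xirp2* is at 1.76 between bright and dim CMs and *Fhl2* is at -1.0 and -0.69 against control.

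Counts over the 8 genes are given beside those over all genes. *Ankrd1* is left out of the counts of calls in all 3 comparisons, since its difference was known, and *Ankrd2* was not tested, which leaves 6 members. Between bright and control CMs none of the 6 passed the edgeR threshold after adjustment over all genes, where 2 of 12203 genes did (0.0164%), the 2 transgene rows hBAG and BAG-eGFP. An unadjusted p under 0.05 was seen for 2, *Xirp2* and *Fhl2* (6.55% of all genes), and DESeq2 called 0 (0.817% of all genes). The sums did not overlap for 2 that were higher, *Ankrd23* and *Xirp2* (24.3% of all genes), and 1 that was lower, *Fhl2* (14.8%). With *Ankrd1*, 5 of the 7 log2 fold changes were above 0, with a median of 0.50 against 0.11 over all genes. Members were chosen with this contrast known in part, and the count is a description.

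Between dim and control CMs none of the 6 passed in edgeR, where 0 of 12195 genes did (0%), 0 had an unadjusted p under 0.05 (6.22% of all genes) and DESeq2 called 0 (0.492%). *Ankrd23* was higher without overlap (23.8% of all genes) and *Xirp2* and *Fhl2* lower (14.2%). With *Ankrd1*, the median was -0.19 against 0.10 over all genes, with 2 members above 0 and 5 below. Immune markers summed to 2.28 and 14.4 normalized CPM in control M26 and M73 and 71.9 and 64.9 in dim CMs of M25 and M116. A single well held 87.8% and 98.0% of these counts in the controls and 99.6% and 52.0% in the dim CMs. The part of these markers in the values of the members was not tested. The 2 comparisons against control share their control sums.

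Between bright and dim CMs none of the 6 passed in edgeR, where 0 of 13439 genes did (0%). Without the filter on low counts *Xirp2* passed, among 217 genes. *Xirp2* had an unadjusted p under 0.05 (4.12% of all genes) and was called by DESeq2 (0.719%). *Xirp1* and *Xirp2* were higher without overlap (15.1% of all genes) and *Fhl2* lower (16%), and the median with *Ankrd1* was 0.56 against -0.01 over all genes. With the mouse as replicate block no gene passed either. Markers of other cell types moved with this comparison: in M25 and M116, immune markers summed to 0.252 and 1.85 normalized CPM in bright and 71.9 and 64.9 in dim CMs, and endothelial markers to 77.1 and 86.4 in bright and 181 and 182 in dim CMs. In dim CMs of M25 a single well held 99.6% of the immune counts. *C1qa*, a macrophage gene, was at 0 in both bright sums. Their part in the values of the members was not tested. In the heterozygous mouse the ratios of cells labelled bright to dim had the opposite sign to both homozygous mice for 6 of 7 genes, by -1.53 for *Ankrd1*, -0.28 for *Xirp1*, -0.15 for *Xirp2*, -0.09 for *Csrp3*, -0.72 for *Fhl1* and 0.32 for *Fhl2* (log2 ratio of normalized CPM, no test). The same log2 ratio was -1.15 for hBAG and -1.63 for BAG-eGFP. The share of all genes with such opposite signs was not computed, so the count of 6 is no result about the members. In set GL9989-2 of M116, *Ankrd1* and *Csrp3* were at -0.047 and -0.055 (log2 ratio of CPM). Whether the labels of M72 are exchanged was not tested.

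**Figure D4:**
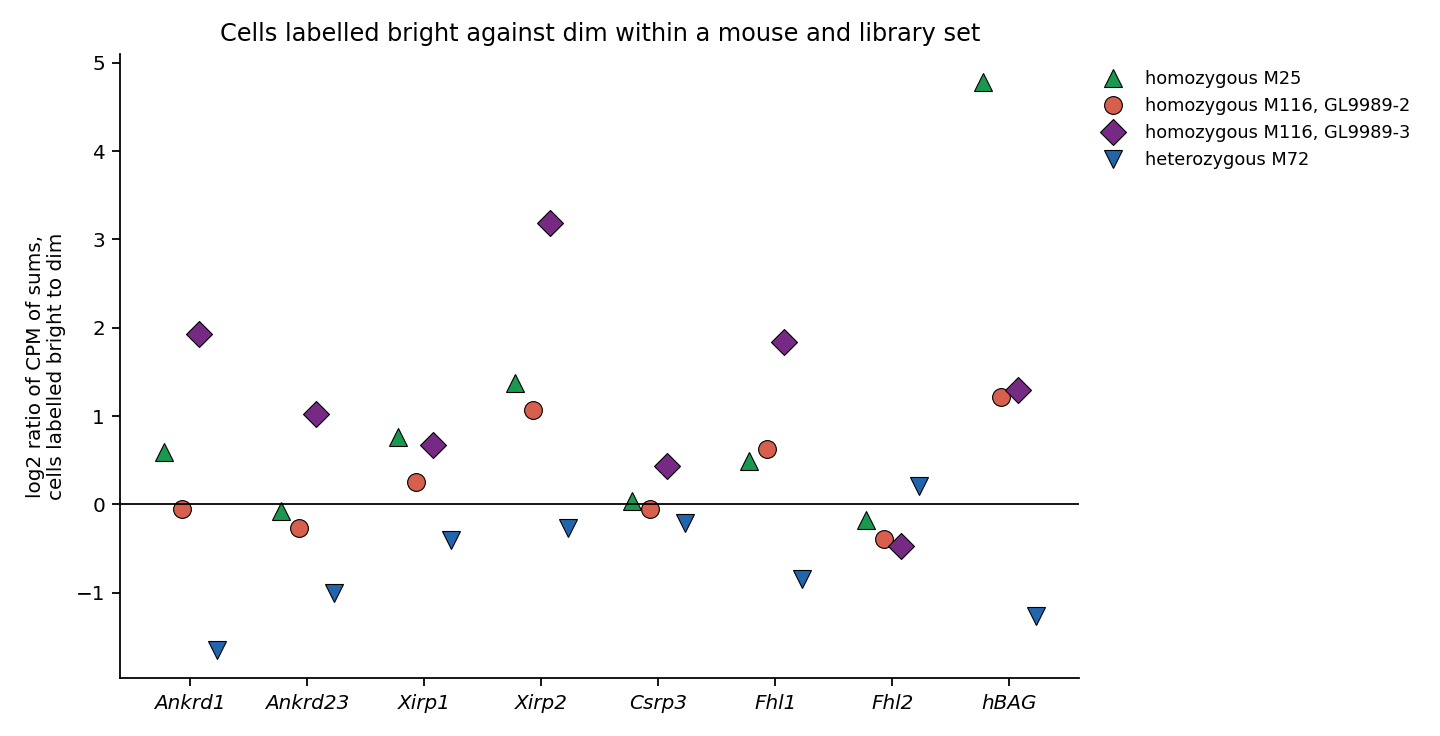
Log2 ratio of the CPM of summed cells labelled bright to those labelled dim, for 7 of the genes and hBAG, in M25, in the 2 library sets of M116 and in M72. *Ankrd1* is at 0.59 in M25, at -0.05 and 1.93 in the 2 sets of M116 and at -1.64 in M72, and hBAG is above 0 except in M72.

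Per kilobase of exon, the order of the 8 genes was stable at both ends. *Csrp3* was first, *Ankrd23* seventh and *Ankrd2* last in all 8 sums. In control M26 the values were 1082 normalized CPM per kilobase for *Csrp3*, 1016 for *Fhl2* and 69.0 for *Ankrd1*, and in bright CMs of M116 they were 849.7, 374 and 445, the one sum in which *Ankrd1* stood above *Fhl2*. With the length of the longest coding transcript in place of all exon bases, *Ankrd1* stood above *Fhl2* in the bright CMs of both homozygous mice. *Xirp1*, *Xirp2* and *Fhl1* lay between 9.69 and 63.5 normalized CPM per kilobase in the 8 sums and changed places among themselves.

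Across cells, relations were computed within the 7 sums of at least 10 cells as Spearman's rho of log2(CPM + 1) and averaged, as a description without p. Cells of a sum share libraries and a range of depths. *Ankrd1* and *Xirp2* had the highest mean rho of the pairs among the 8 genes, 0.34, from 0.12 to 0.71 and above 0 in all 7. The mean was 0.16 for *Ankrd1* and *Csrp3* and 0.24 for *Xirp2* and *Csrp3*, and both ranges included values below 0 (lowest -0.21 and -0.11). *Ankrd1* had a mean of 0.02 with *Fhl1* and with *Fhl2*. With hBAG the means of the members other than *Ankrd2* lay between -0.08 and 0.13, and that of *Ankrd1* was -0.04.

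The genes most like *Ankrd1* across cells were taken from 3333 others with a count in at least 50% of the cells of each of these 7 sums. *Nppb*, which encodes brain natriuretic peptide, was first with a mean rho of 0.43, followed by the small heat shock protein gene *Cryab* (0.41), the myosin light chain gene *Myl12a* (0.41), *Adprhl1* (0.35) and *Xirp2* (0.34), where the median over all was 0.04. The ranges over the 7 sums were 0.00 to 0.75 for *Nppb* and 0.28 to 0.57 for *Myl12a*. *Csrp3* ranked 211th, *Xirp1* 811th, *Fhl2* 1873rd and *Fhl1* 1922nd. With only cells of at least 1000 genes, the mean rho of *Ankrd1* was 0.56 with *Nppb* and 0.32 with *Xirp2*.

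**Figure D5:**
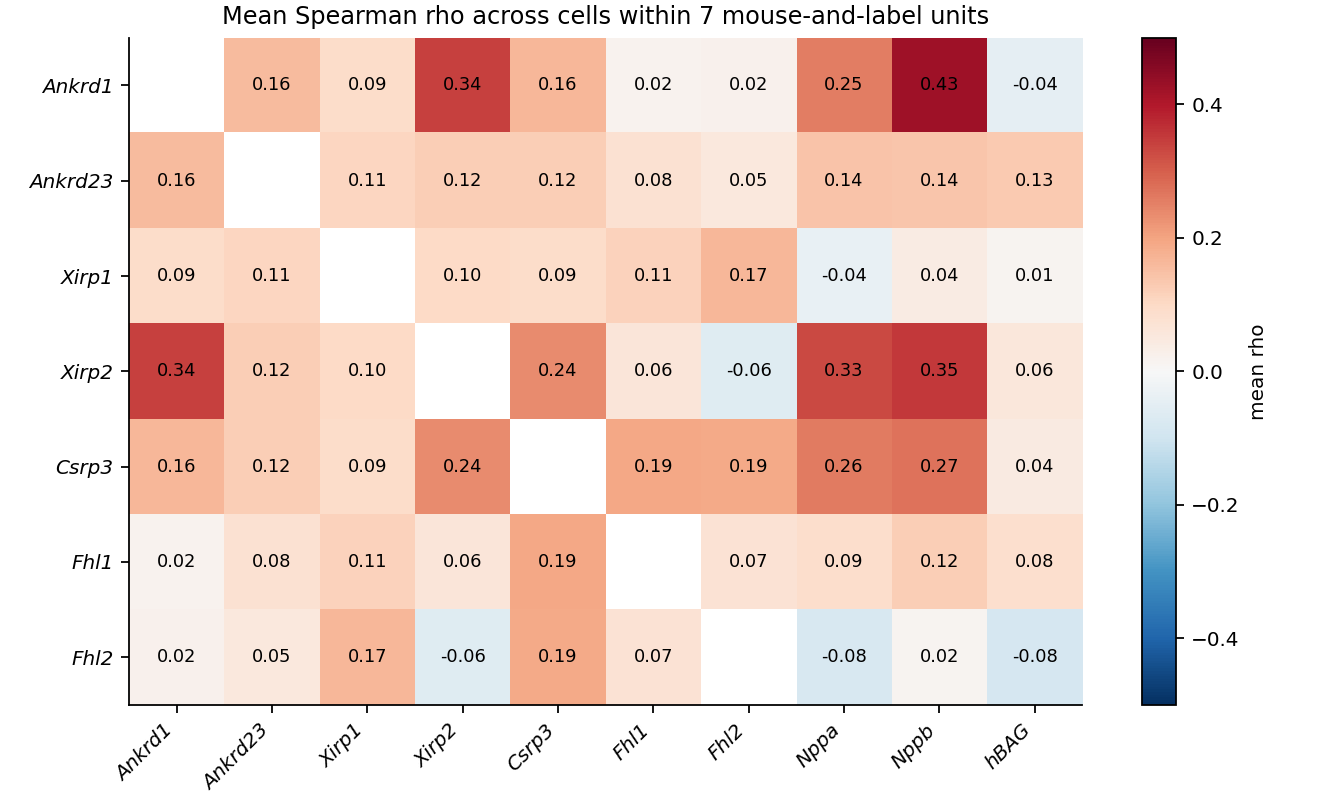
Mean Spearman rho across cells within the 7 sums of at least 10 cells, for 7 of the genes against each other and against *Nppa*, *Nppb* and hBAG. The highest value is that of *Ankrd1* with *Nppb* (0.43), the *Ankrd1* and *Xirp2* pair stands at 0.34 and the hBAG column lies between -0.08 and 0.13.

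Lists of genes around the members had no gene past the edgeR threshold in any of the 3 comparisons. Of 15 load-induced genes 14 were tested between bright and control CMs, 10 were above 0 with a median log2 fold change of 1.12 (0.11 over all genes), 7 were higher without overlap (24.3% of all genes), an unadjusted p under 0.05 was found for 3 (6.55% of all genes), and 2 were called by DESeq2 (0.817% of all genes), *Nppa* and *Atf3*. *Atf3*, a stress-induced transcription factor, had 9.62 and 11.9 normalized CPM in control, 35.6 and 228 in bright and 30.4 and 295 in dim CMs. Bright CMs stood 3.54 above control in log2 fold change (standard error 0.90, adjusted p = 0.663, edgeR). Its high values were those of M116. *Nppa* had 20.1 and 45.3 normalized CPM in control, 381 and 204 in bright and 420.0 and 6.46 in dim CMs. Here bright CMs stood 3.10 above control (standard error 0.58, adjusted p = 0.663, edgeR). The median bright CM held 8.75 CPM of *Nppa* in M25 and 0 in M116, and the bright CMs of M116 held 42.2 CPM in set GL9989-2 and 405 in GL9989-3. *Hbegf* and *Edn1* were at -0.47 (standard error 0.64) and -0.57 (standard error 1.78). For dim against control the list's median was 0.28 (0.10 over all genes), with 9 of 14 above 0, 4 higher without overlap (23.8% of all genes) and 1 called by DESeq2, *Atf3* (0.492% of all genes). For bright against dim the list's median was 0.38 (-0.01 over all genes). Early response genes, which can rise during dissociation, moved with this list: the 12 of them summed to 292 and 242 normalized CPM in control, 778 and 997 in bright and 347 and 1189 in dim CMs, and 3 of them, *Atf3*, *Egr1* and *Fos*, belong to both lists. Their part in the result was not tested.

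Of 20 titin and Z-disc partners 19 were tested between bright and control CMs, 6 above 0 and 13 below, with a median of -0.12 (0.11 over all genes) and 2 at an unadjusted p under 0.05 (6.55% of all genes). *Pdlim3* and *Pdlim1*, which encode PDZ and LIM domain proteins, were at 1.19 (standard error 0.92) and 0.87 (standard error 0.52). *Nexn*, an actin filament binder, was at -0.95 (standard error 0.32, adjusted p = 0.663 from edgeR), and *Trim63*, a muscle ubiquitin ligase, at -0.80 (standard error 0.38). Of 14 costamere and integrin genes 13 were tested, with a median of -0.14 (0.11 over all genes) and 1 at an unadjusted p under 0.05, *Lims2* (6.55% of all genes). In this list *Ptk2* and *Tln2* were at 1.32 (standard error 1.70) and 0.73 (standard error 0.46), *Lims2* and *Pxn* at -1.83 (standard error 0.75) and -1.07 (standard error 1.55). *Lims2*, a partner of integrin-linked kinase, had 35.1 and 29.2 normalized CPM in control, 13.0 and 5.65 in bright and 23.5 and 37.4 in dim CMs, so that the bright sums lay below all others.

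The regulators SRF, MEF2, TEAD and the cardiac factors were also without a call, 15 of 16 tested with a median of -0.30 (0.11 over all genes) and 0 at an unadjusted p under 0.05 (6.55% of all genes). DESeq2 called 0 genes in the structural, regulator and paralog lists. *Mef2d* and *Gata4* were at 0.89 (standard error 0.67) and 0.61 (standard error 0.62), and *Mrtfa*, an SRF cofactor, and *Hand2* at -1.74 (standard error 1.19) and -0.62 (standard error 0.92). Of 7 paralogs of the members 5 were tested, with a median of 0.39 (0.11 over all genes). *Csrp1* and *Lmcd1* were at 2.88 (standard error 1.79) and 0.57 (standard error 0.61), *Csrp1* from at most 8.69 normalized CPM, and *Fhl3* was at -2.26 (standard error 1.46) with at most 3.38 normalized CPM.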

How the data were processed

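The authors isolated ventricular CMs by Langendorff dissociation, picked single cells by hand, left out cells with little cDNA and prepared SMART-seq2 libraries. They aligned paired reads with STAR 2.7.0f and took its gene counts. The deposited matrix holds raw counts per gene and cell, without normalization. The genome build, the annotation and the strand setting are not given in the sources used here. Molecular identifiers are absent, so intervals cover counting error only.

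Each matrix column was matched to its cell by the description in the labels. Counts were summed per mouse and label, and the summed counts were tested with edgeR 4.0.16 (filterByExpr, TMM factors, quasi-likelihood test) in R 4.3.3, with Benjamini-Hochberg adjustment over all genes tested and a threshold of 0.05. The script was tested on simulated data. The mouse was the replicate. Normalized CPM are CPM of the 8 sums with TMM factors over all 8. Each cell's CPM uses its own total. Alternatives used DESeq2 1.42.0, limma 3.58.1, other scalings, filters, cells and samples. The prefix of the library set name (GL-9122b or GL9989) was used as a block. The deposited labels, not the transgene counts, set the groups.

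Bright and dim sums come from the same mice and are paired by animal. As a check, the log2 ratio of M25 to M116 was taken per gene in bright and in dim CMs, and over 13439 genes these ratios had Pearson's r = 0.0820 and Spearman's rho = 0.120.

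Members and lists were chosen with earlier results of these data known. Named were the 8 members, in each list at most 2 with the highest and 2 with the lowest fold change of bright against control, and the 5 genes most like *Ankrd1*. Thinning to 100000 counts per cell left out 20 cells. Gene positions are from GENCODE vM21 and sequences from RefSeq on GRCm38.p6, used for names and positions only. Analyses were run with Python, NumPy, pandas, SciPy and matplotlib.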

Additional observations from a re-analysis of the deposited data

Results flagged for a closer look

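The ratio of cells labelled bright to cells labelled dim had the opposite sign in the heterozygous mouse M72 and in both homozygous mice for 6 of the 7 members with counts there. The log2 ratios of normalized CPM in M72 were -1.53 for *Ankrd1*, -0.28 for *Xirp1*, -0.15 for *Xirp2*, -0.095 for *Csrp3*, -0.72 for *Fhl1* and 0.32 for *Fhl2*. In M25 and M116 they were 0.58 and 1.03 for *Ankrd1*, 0.75 and 0.39 for *Xirp1*, 1.36 and 2.29 for *Xirp2*, 0.03 and 0.21 for *Csrp3*, 0.48 and 1.20 for *Fhl1* and -0.18 and -0.44 for *Fhl2*. The difference between the genotypes was not tested, since only 1 heterozygous mouse was available. In set GL9989-2 of M116, *Ankrd1* and *Csrp3* were at -0.047 and -0.055 (log2 ratio of CPM). In M25 the median cells had the sign of the sums for *Ankrd1* and *Xirp1* and the opposite sign for *Xirp2*, *Csrp3*, *Fhl1* and *Fhl2*. The share of all genes with opposite signs in M72 was not computed. In M72 hBAG and BAG-eGFP were also higher in cells labelled dim, with a bright to dim ratio of 0.452 and 0.323. The labels were set by eGFP fluorescence of the cells, which was not analysed here, and whether they are exchanged was not tested.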

How the results depend on the processing

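With 2 mice per group the number of genes past the threshold depended on the tool and filter. DESeq2 called 92 genes between bright and control, 53 between dim and control and 91 between bright and dim CMs, the test without a filter 163, 58 and 217, and limma with each cell weighted equally 4, 1 and 2. The 5 labels in 1 fit gave 5 and 1 genes against control, and the prefix of the library set name as a block 10 and 12. Leaving out 1 mouse's sum, where the spread comes from the group that keeps both, gave 0 to 41, 3 to 827 and 0 to 74 genes, in the first comparison 0 without control M26, 15 without bright M25 and 41 without bright M116, in the second 827 without control M26, 3 without control M73, 10 without dim M25 and 8 without dim M116, in the last 74 without bright M116. With the mouse as a replicate block 0 genes passed between bright and dim CMs (468 with an unadjusted p under 0.05), and it changed no call of a member.

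*Ankrd1* kept its sign in the 11 other settings of each comparison, from 2.39 to 3.24 for bright and 1.55 to 3.11 for dim against control and from 0.12 to 1.01 for bright against dim CMs, and in the added ones. It carries no test here. In edgeR as reported it was not past the threshold against control, and in other settings the outcome varied. None of these outcomes is read as support, since the difference was known when the genes were chosen. Signs were reversed for other members, and the cause was not tested. With library size, *Csrp3* was at 0.21 and 0.092 and *Xirp1* at 0.21 (dim); all genes then moved to a median of 0.41 and 0.38 against control. With each cell weighted equally, *Csrp3* was at 0.32, 0.68 and -0.35 in the 3 comparisons, *Fhl1* at 1.11 (dim) and -0.15 (bright against dim), *Xirp1* at 1.08 and *Fhl2* at 0.45 (both dim). Leaving out 1 mouse's sum gave -0.26 to 0.11, -0.37 to 0.031 and -0.10 to 0.32 for *Csrp3*, -0.010 to 0.85 and -1.18 to 0.20 for *Fhl1* against control, -0.44 to 0.45 for *Xirp1* (dim) and -0.0465 to 0.26 for *Ankrd23* (bright against dim).

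Among alternatives chosen after seeing the data, leaving out the 3 bright CMs over 5000 CPM of *Xirp2* gave -0.39 for *Xirp2* and -0.32 for *Fhl1* (bright against control) and -0.20 for *Ankrd23* and -0.024 for *Csrp3* (bright against dim). M116 cells of set GL9989-2 only gave -0.18 for *Ankrd23* and -0.012 for *Csrp3* (bright against dim) and 0.023 for *Xirp1* (dim), those of GL9989-3 only 0.053 for *Csrp3* (bright against control). Removing the cell of highest count moved *Xirp2* from 0.99 to 0.24 (bright against control) and from 1.79 to 0.81 (bright against dim). Over the 11 settings not added later, *Xirp2* ran from 0.038 to 1.25, -1.23 to -0.12 and 0.16 to 2.19 in the 3 comparisons, each value nearest 0 with cells weighted equally, and *Fhl2* from -1.28 to -0.22 (bright against control) and -0.67 to -0.13 (bright against dim). Past the threshold among members other than *Ankrd1* was *Xirp2* between bright and dim CMs, with DESeq2 and without the filter.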
